A study of Mus musculus with 6 samples.

Results

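The integrated stress response of mouse liver was followed through 10 genes, namely Eif2ak3, Atf4, Ddit3, Trib3, Nupr1, Asns, Chac1, Ppp1r15a, Sesn2 and Fgf21. They were chosen by name, with earlier results of these data known. All 10 were found by symbol among the 18384 genes that had at least 1 read, after rounding, in the 6 libraries. Liver RNA of male C57BL/6 mice (C57BL/6J in the study's methods) was sequenced with 1 library per condition, and the labelled age of 6 to 8 weeks was, by the methods, that at the start, before the weeks of diet or CCl4. In the diet model, CD was the control, on what the study calls a standard diet. HFD was a high-fat diet of 16 weeks that the labels call NASH, and JT003-HFD added JT003 for 4 weeks. In the CCl4 model, Oil received corn oil, CCl4 received carbon tetrachloride in corn oil every 3 days for 6 weeks, and JT003-Fibrosis added JT003 for 3 weeks. JT003 is a peptide agonist of both adiponectin receptors, given at 500 μg/kg each day by intraperitoneal injection. The study names its sequenced diet groups by the high-fat diet alone, and its methods also describe a NASH model with a methionine and choline deficient diet in the last weeks, which the labels do not mention. Whether a library held RNA of 1 mouse or of several was not stated.

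In the integrated stress response, kinases that sense different stresses phosphorylate the translation factor eIF2 on its alpha subunit. PERK, the product of Eif2ak3, does so when unfolded proteins accumulate in the endoplasmic reticulum, and GCN2, PKR and HRI answer to amino acid shortage, double-stranded RNA and haem shortage. Phosphorylated eIF2 lowers protein synthesis at large but lets the messenger of ATF4 be translated. ATF4 then switches on genes of amino acid supply, the factor CHOP (Ddit3), the pseudokinase Trib3 and, through Ppp1r15a (GADD34), the phosphatase that resets eIF2. ATF4 is regulated largely at translation, and kinase activity is a matter of phosphorylation, so RNA levels do not report either. In the liver, Fgf21 is also a well-known target of PPARα, and a hormone secreted in fasting and in stress.

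The DNA near the starts of the 5 genes that passed the test described below in at least 1 comparison of a model with its control or of JT003 with its model is shown because ATF4 binds together with C/EBP proteins at a composite element. RefSeq promoter windows (build GRCm38.p6), 250 bases before to 50 after the gene start, were found for all 10 genes. They were searched on both strands for the letters TGATGNAA of this C/EBP-ATF response element, for the ATF/CRE letters TGACGTCA, and for the endoplasmic reticulum stress response element by its consensus (ERSE). The windows are given 5′ to 3′ on the strand of the gene, with matches in capitals.
Ddit3, chr10:127290543-127290842, plus strand: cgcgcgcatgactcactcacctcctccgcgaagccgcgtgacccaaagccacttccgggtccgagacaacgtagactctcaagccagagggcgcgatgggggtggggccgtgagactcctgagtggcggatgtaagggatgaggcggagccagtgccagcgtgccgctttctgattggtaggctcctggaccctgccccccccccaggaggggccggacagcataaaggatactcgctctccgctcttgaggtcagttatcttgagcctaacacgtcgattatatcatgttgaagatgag
Nupr1, chr7:126625421-126625720, minus strand: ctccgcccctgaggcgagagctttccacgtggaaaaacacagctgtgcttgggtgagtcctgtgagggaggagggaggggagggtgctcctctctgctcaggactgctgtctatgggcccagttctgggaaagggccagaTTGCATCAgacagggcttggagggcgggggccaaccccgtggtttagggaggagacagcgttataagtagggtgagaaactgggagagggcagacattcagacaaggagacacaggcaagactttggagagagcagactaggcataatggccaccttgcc
Asns, chr6:7693160-7693459, minus strand: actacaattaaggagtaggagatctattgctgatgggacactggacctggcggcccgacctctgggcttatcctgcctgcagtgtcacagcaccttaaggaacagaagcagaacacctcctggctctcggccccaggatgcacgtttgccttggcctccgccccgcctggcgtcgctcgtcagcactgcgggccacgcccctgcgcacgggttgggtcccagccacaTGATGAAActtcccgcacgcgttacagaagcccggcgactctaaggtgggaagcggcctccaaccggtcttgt
Chac1, chr2:119350992-119351291, plus strand: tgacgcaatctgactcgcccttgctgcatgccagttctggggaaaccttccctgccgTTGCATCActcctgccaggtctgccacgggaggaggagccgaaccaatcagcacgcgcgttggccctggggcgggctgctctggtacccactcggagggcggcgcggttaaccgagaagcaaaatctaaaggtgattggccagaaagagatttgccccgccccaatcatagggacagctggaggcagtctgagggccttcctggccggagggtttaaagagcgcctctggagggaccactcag
Fgf21, chr7:45615441-45615740, minus strand: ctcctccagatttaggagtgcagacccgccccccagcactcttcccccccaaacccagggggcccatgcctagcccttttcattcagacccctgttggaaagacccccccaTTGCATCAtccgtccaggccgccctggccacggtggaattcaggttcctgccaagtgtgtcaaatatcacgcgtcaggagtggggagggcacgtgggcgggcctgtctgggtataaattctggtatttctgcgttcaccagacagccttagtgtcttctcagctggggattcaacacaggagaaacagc

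The C/EBP-ATF letters stood in 5 of the 10 windows, those of Asns, Chac1, Fgf21, Nupr1 and Trib3, against 3.97% of all 32851 windows. Asns held TGATGAAA beginning 23 bases before the start. Chac1, Fgf21 and Nupr1 each held TTGCATCA, the reverse complement of the element, beginning 193, 139 and 110 bases before the start. In Trib3 the match TTACATCA lay 14 bases after it. The ATF/CRE letters were in the window of Ppp1r15a alone among the 10, beginning 12 bases before the start, and in 1.79% of all windows. The endoplasmic reticulum element was in none of the 10 and in 0.119% of all windows. The Ddit3 window held none of the 3 sequences, which says only that these letters are not in this stretch.

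Each library held 19374236 to 20184557 estimated reads, and with 1 library per condition there was no spread between mice to set a difference against. Counts of 2 libraries were therefore compared by an exact conditional binomial test (two-sided), after TMM scaling of library sizes, over all genes with at least 1 read. A gene is called here when its Benjamini-Hochberg adjusted p is below 0.001 and its log2 ratio is at least 1 in size. Intervals in brackets are 95% Clopper-Pearson intervals of the log2 ratio, and they cover counting error only. The test therefore compares libraries and not conditions. The tissue label was checked with 8 hepatocyte markers, none of which was at 0 in any of the 6 libraries, and Alb was the most abundant gene in each. In bulk tissue, fewer cells of a type and less RNA per cell cannot be told apart.

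Across the whole set the members did not move as a block. In HFD over CD, 4 of the 10 members were called, beside 5.44% of all tested genes (2.96% higher, 2.49% lower). Ddit3 and Chac1 rose, while Asns and Fgf21 fell. In JT003-HFD over HFD, 2 members were called, Ddit3 falling and Fgf21 rising, and 1.67% of all genes were called (0.767% higher, 0.901% lower). In CCl4 over Oil, Asns fell and Nupr1 rose, which made 2 called members beside 7.26% of all genes (4.8% higher, 2.46% lower). In JT003-Fibrosis over CCl4, Chac1 rose and Asns, Fgf21 and Nupr1 fell, which made 4 called members beside 4.46% of all genes (1.91% higher, 2.55% lower). Without the threshold on the ratio, 5, 3, 4 and 6 members had an adjusted p below 0.001 in the exact test in these 4 comparisons, beside 23.6%, 14.3%, 26.3% and 24.1% of all genes. When variation between mice was assumed in edgeR's exact test, with a biological coefficient of variation of 0.4, 0 members were called in each of the 4, and 3, 1, 2 and 2 had an unadjusted p below 0.05. The median log2 ratio of the 10 members was -0.16, 0.20, 0.19 and -0.38 in these 4 comparisons, and the median of all tested genes lay between -0.01 and 0.00. The comparisons within a model share the HFD or the CCl4 library, so a library that stood apart would move both.

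**Figure D1:**
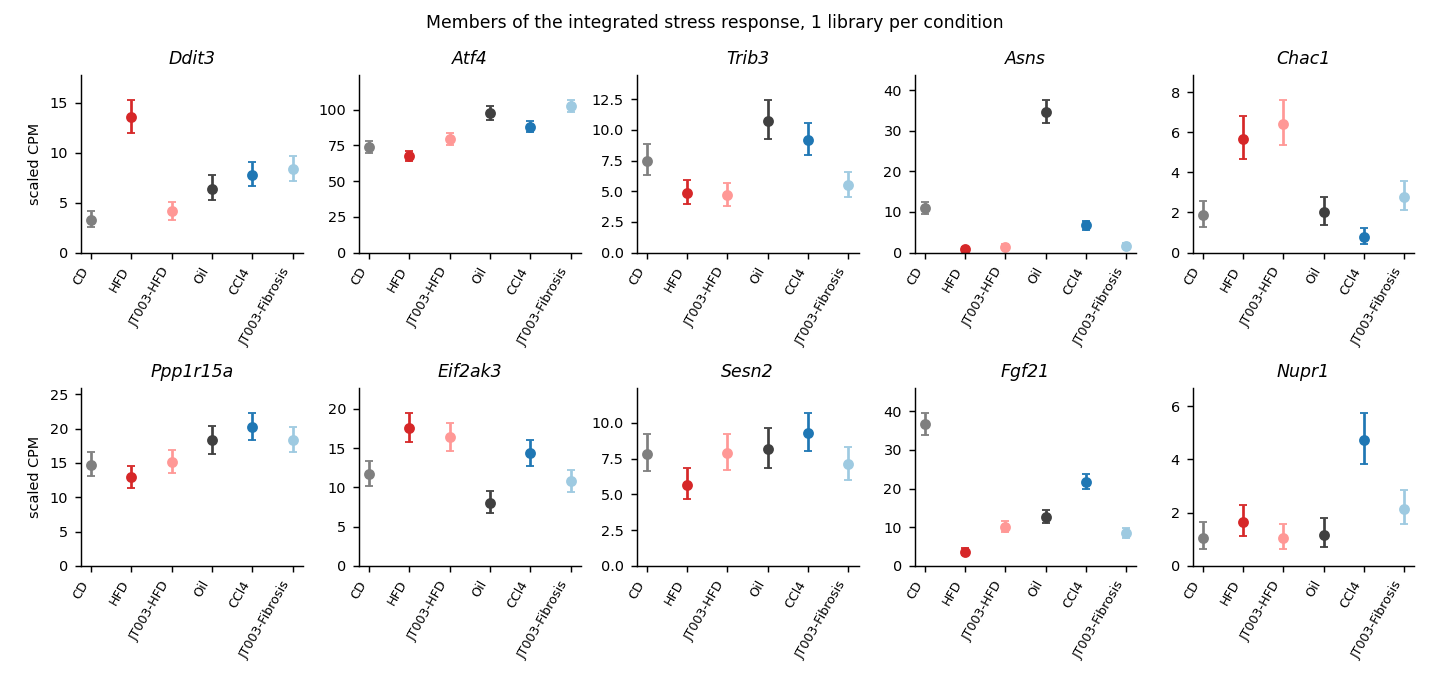
Level of each of the 10 genes in each of the 6 libraries, as read counts scaled to a common library size (CPM) by TMM over the 6 libraries, with linear axes from 0 and exact 95% Poisson intervals as bars. Ddit3 is highest in HFD at 13.6, Asns in Oil at 34.7, Fgf21 in CD at 36.6 and Nupr1 in CCl4 at 4.72, while Atf4 stays between 67.6 and 102.4.

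**Figure D2:**
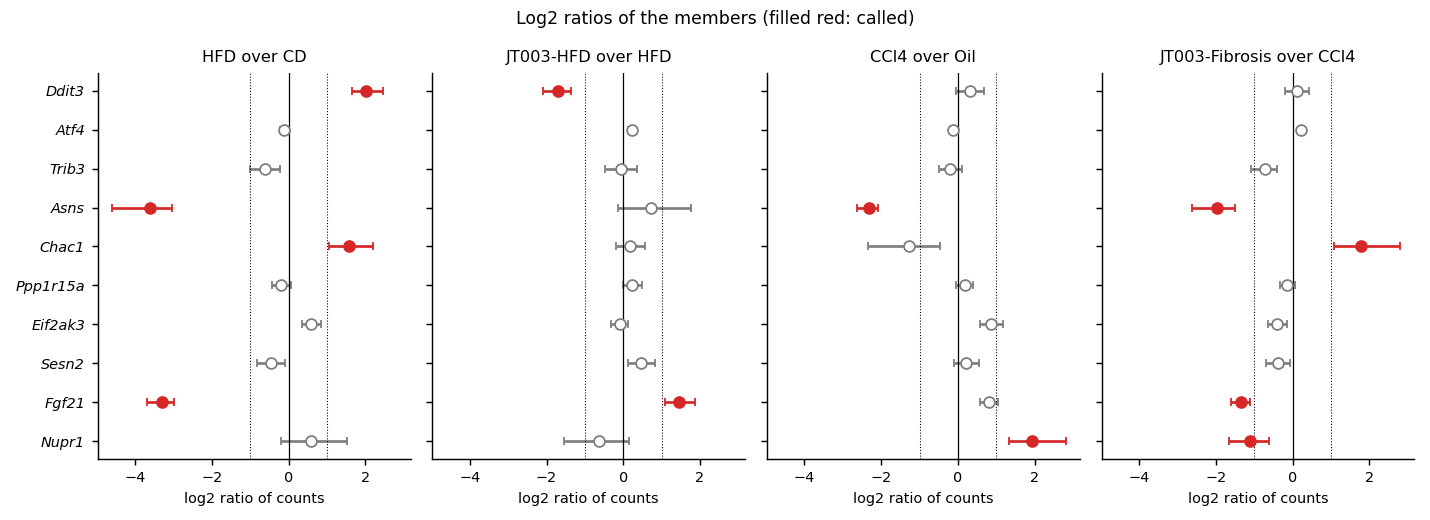
Log2 ratio of counts of the 10 genes in 4 comparisons, with 95% Clopper-Pearson intervals, dotted lines at 1 and -1, and filled red points for called genes. The called members lie on both sides of 0 in each comparison, with Ddit3 at 2.01 and Asns at -3.61 in HFD over CD.

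Eif2ak3 (gene 13666) encodes PERK, the kinase at the head of the endoplasmic reticulum branch. It had 220 reads in CD, 352 in HFD, 334 in JT003-HFD, 137 in Oil, 304 in CCl4 and 232 in JT003-Fibrosis. The model library was the highest of the 3 in both models, and Oil was the lowest of all 6. Its log2 ratio was 0.58 [0.34, 0.84] in HFD over CD and 0.85 [0.57, 1.16] in CCl4 over Oil, below the ratio set for a call in both, and with JT003 it was -0.10 [-0.32, 0.12] over HFD and -0.40 [-0.65, -0.15] over CCl4. With library sizes taken as total reads, which moved the median of all genes with 10 counts or more by 0.23, the ratio over Oil was 1.08 and Eif2ak3 was called. In the order of its 6 levels, the counting intervals of every pair of neighbours overlapped.

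Atf4 (gene 11911), the central transcription factor, was by far the most abundant member per length, with 45.01 to 75.3 FPKM (reads scaled by transcript length and by the reads of the library). The next highest median over the libraries was 11.5 FPKM for Fgf21, against 54.6 for Atf4. Its reads were 1391 in CD, 1359 in HFD, 1620 in JT003-HFD, 1657 in Oil, 1867 in CCl4 and 2199 in JT003-Fibrosis. The libraries of the CCl4 model were all above those of the diet model on the scaled level, and the highest was 1.51 times the lowest. No ratio came near the size set for a call, with log2 ratios of -0.12 [-0.23, -0.02] in HFD over CD and -0.12 [-0.21, -0.02] in CCl4 over Oil. With total reads as library sizes the former was -0.0003 and the latter turned to 0.12. With JT003 the ratios were 0.23 [0.13, 0.34] over HFD and 0.23 [0.14, 0.32] over CCl4. Both of these had an adjusted p below 0.001 in the exact test and fell short of a call on the ratio alone.

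Ddit3 (gene 13198) encodes CHOP, a C/EBP family factor linked to cell death under prolonged stress. It had 62 reads in CD, 273 in HFD, 84 in JT003-HFD, 109 in Oil, 165 in CCl4 and 180 in JT003-Fibrosis. HFD stood above all 5 other libraries, with a counting interval that overlapped none of theirs, and JT003-HFD and CD, the lowest of the 6, overlapped each other. The ratio of HFD over CD was 4.04-fold, or 2.01 [1.65, 2.47] on the log2 scale, with adjusted p = 9.36e-29 in the exact conditional binomial test. JT003-HFD over HFD was -1.70 [-2.09, -1.36], with adjusted p = 1.05e-23 in the same exact test. JT003-HFD over CD was then 0.32 [-0.17, 0.82] and was not called. In the CCl4 model the log2 ratios were 0.31 [-0.05, 0.67] for CCl4 over Oil and 0.11 [-0.20, 0.43] for JT003-Fibrosis over CCl4, neither of them called, and the latter was -0.72 against the remainder of a CCl4 pool described further on. Ddit3 was the 1 member with fractional read estimates, in all 6 libraries, so part of its reads were shared with other entries by the authors' counting.

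Trib3 (gene 228775), a pseudokinase induced by ATF4 and CHOP that in turn restrains ATF4, did not follow Ddit3 in the diet model. It had 141 reads in CD, 98 in HFD, 95 in JT003-HFD, 183 in Oil, 195 in CCl4 and 118 in JT003-Fibrosis. HFD over CD was -0.61 [-1.003, -0.23], JT003-HFD over HFD -0.07 [-0.49, 0.35], and CCl4 over Oil -0.19 [-0.50, 0.10] on the log2 scale, the last turning to 0.04 with total reads as library sizes and to 0.44 [0.20, 0.68] with the CCl4 pool remainder. JT003-Fibrosis over CCl4 was -0.73 [-1.08, -0.40], also without a call.

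Nupr1 (gene 56312) encodes a small stress-induced chromatin protein. It had 20 reads in CD, 33 in HFD, 21 in JT003-HFD, 20 in Oil, 100 in CCl4 and 46 in JT003-Fibrosis. CCl4 was the highest library, and the other 5 lay at 46 reads or fewer. CCl4 over Oil was 1.94 [1.33, 2.81], with adjusted p = 5.5e-10 in the exact test. JT003-Fibrosis over CCl4 was -1.10 [-1.67, -0.61], with adjusted p = 3.34e-05 in the exact test, and JT003-Fibrosis over Oil was 0.85 [0.12, 1.74], with no call. In the diet model the ratios were 0.59 [-0.21, 1.51] for HFD over CD and -0.63 [-1.54, 0.16] for JT003-HFD over HFD, and their intervals held 0.

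Asns (gene 27053), asparagine synthetase, makes asparagine from aspartate and glutamine and is a classical ATF4 target. It had 205 reads in CD, 16 in HFD, 28 in JT003-HFD, 590 in Oil, 142 in CCl4 and 35 in JT003-Fibrosis. It was the most variable member, with 43.6 times between the highest and the lowest scaled level. Both control libraries were above all others. HFD over CD was -3.61 [-4.61, -3.04], with adjusted p = 1.71e-44, and CCl4 over Oil was -2.33 [-2.62, -2.08], with adjusted p = 2.29e-85, both in the exact test. JT003-HFD over HFD was 0.72 [-0.15, 1.77], and JT003-HFD over CD was still -2.90 [-3.61, -2.41]. JT003-Fibrosis over CCl4 was -1.97 [-2.61, -1.49], and JT003-Fibrosis over Oil was -4.29 [-4.91, -3.88], the 1 called member of that comparison, beside 5.06% of all genes. Asns thus moved in the opposite direction from Ddit3 in HFD.

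Chac1 (gene 69065) encodes an enzyme that degrades glutathione. It had 35 reads in CD, 114 in HFD, 131 in JT003-HFD, 34 in Oil, 16 in CCl4 and 60 in JT003-Fibrosis. The pair of high-fat libraries stood above the other 4, and their intervals overlapped each other. HFD over CD was 1.56 [1.05, 2.20], with adjusted p = 4.23e-09 in the exact test, and JT003-HFD over HFD was 0.18 [-0.20, 0.55], so that JT003-HFD over CD was called as well, at 1.74 [1.24, 2.37]. That comparison called 3 members, Chac1, Asns and Fgf21, beside 5.98% of all genes. CCl4 over Oil was -1.26 [-2.33, -0.48] on few reads, with adjusted p = 0.00497 in the exact test, and was not called. JT003-Fibrosis over CCl4 was 1.77 [1.08, 2.79], with adjusted p = 2.39e-06.

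Ppp1r15a (gene 17872), the regulatory subunit that directs a phosphatase to eIF2, and Sesn2 (gene 230784), a stress protein that restrains mTORC1 signalling, varied least after Atf4. Ppp1r15a had 278 reads in CD, 259 in HFD, 309 in JT003-HFD, 311 in Oil, 429 in CCl4 and 393 in JT003-Fibrosis. Its log2 ratios in the 4 comparisons lay between -0.19 and 0.23, and none was called. Sesn2 had 148 reads in CD, 114 in HFD, 161 in JT003-HFD, 139 in Oil, 197 in CCl4 and 153 in JT003-Fibrosis. JT003-HFD over HFD was 0.47 [0.12, 0.83] and JT003-Fibrosis over CCl4 was -0.37 [-0.69, -0.06] for Sesn2, with no call. For both genes, every pair of neighbours in the order of the levels had overlapping intervals.

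Fgf21 (gene 56636), the hormone, had 691 reads in CD, 73 in HFD, 205 in JT003-HFD, 215 in Oil, 460 in CCl4 and 182 in JT003-Fibrosis. CD was the highest library and HFD the lowest, 9.83-fold apart by the fitted ratio. HFD over CD was -3.30 [-3.70, -2.98], with adjusted p = 3.86e-134, and JT003-HFD over HFD was 1.44 [1.07, 1.87], with adjusted p = 6.45e-14, both in the exact test. JT003-HFD over CD stayed at -1.86 [-2.10, -1.64]. In the CCl4 model the signs were the other way, with CCl4 over Oil at 0.80 [0.57, 1.05], below the ratio of a call, and JT003-Fibrosis over CCl4 at -1.34 [-1.60, -1.10], which was called. With total reads as library sizes, CCl4 over Oil was 1.04 and was called.

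The controls themselves differed. In Oil over CD, a comparison added after the values were seen, Asns was 1.66 [1.44, 1.91] and Fgf21 was -1.53 [-1.77, -1.31], both called, beside 5.54% of all genes. Ddit3 was 0.94 [0.50, 1.43] in the same comparison and was not called. Diet, injection and any other difference between these mice cannot be told apart here.

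The CCl4 library could be set against further counts that the authors headed CCl4. In 1 comparison table of the authors the CCl4 column appeared to be a pool, as it summed to 2.97 times the CCl4 library, and subtracting the library left a remainder of unknown makeup. In CCl4 over this remainder, 2 of the 10 members were called, beside 1.69% of all genes. Asns was -1.25 [-1.53, -0.99] and Chac1 was -1.31 [-2.25, -0.60]. Ddit3, with 165 reads in the library and 618 in the remainder, was -0.85 [-1.11, -0.60], and Fgf21, with 460 and 556 reads, was 0.77 [0.60, 0.96].

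The remainder held 39780549 reads, against 20156841 in the CCl4 library, so genes of few reads reached a call more easily with it. Counts of calls with the remainder in place of the library are given without the share of all genes. They are not like for like with the counts of calls with the library. With the remainder in place of the library, the called drop of Asns and rise of Nupr1 over Oil were still called, at -1.10 and 2.44. Ddit3 was then 1.14 [0.85, 1.46] and Eif2ak3 1.27 [1.02, 1.55] over Oil, and both were called. JT003-Fibrosis over the remainder was -3.23 for Asns and -1.58 for Nupr1, both called. For Ddit3 it was -0.72 [-0.98, -0.49], not called and on the other side of 0 from the 0.11 of the library, and for Eif2ak3 it was -0.82 [-1.04, -0.61], not called. Chac1 at 0.52 [0.03, 1.02] and Fgf21 at -0.56 [-0.81, -0.32] were not called, unlike with the library, whereas Trib3 at -1.37 [-1.67, -1.09] was. For Fgf21 the remainder over Oil was 0.02 [-0.21, 0.25], against 0.80 for the library. The plot of the CCl4 model places both kinds of CCl4 counts side by side.

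**Figure D3:**
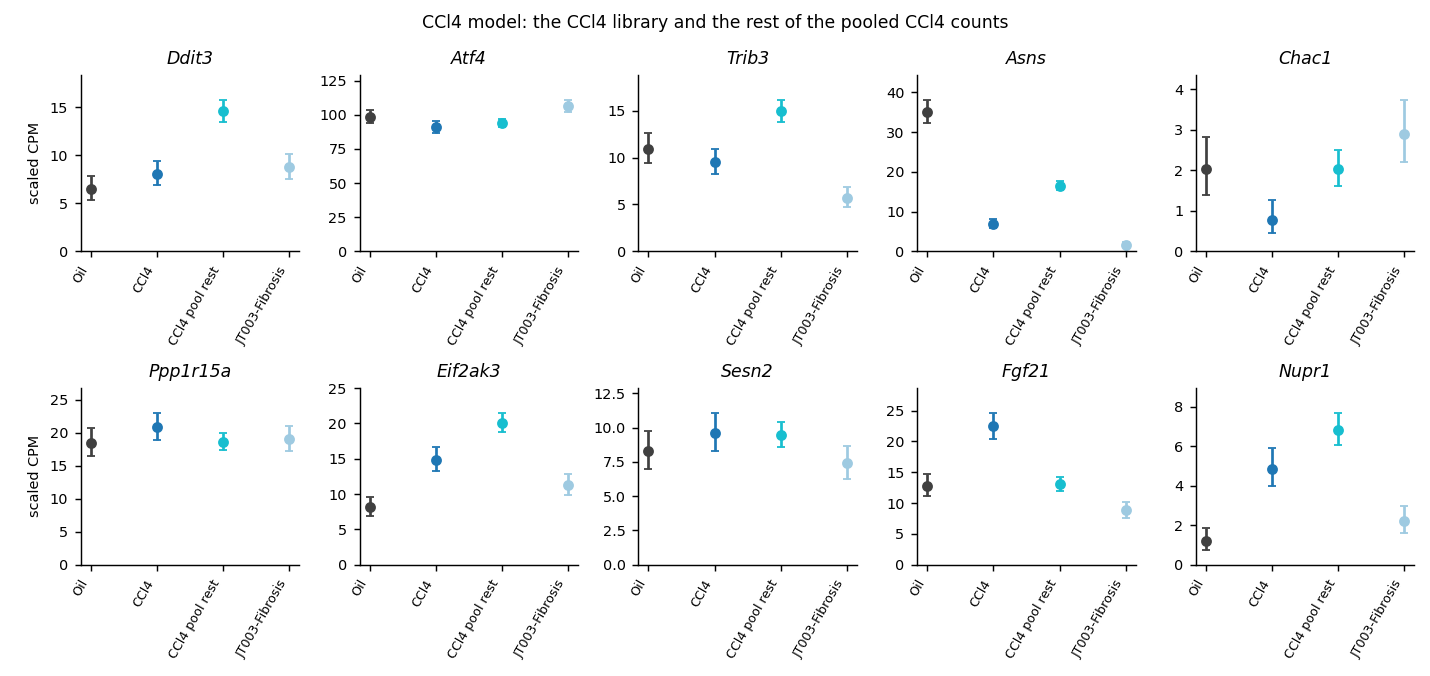
Level of the 10 genes in Oil, the CCl4 library, the rest of the pooled CCl4 counts and JT003-Fibrosis, as read counts scaled to a common library size (CPM) by TMM over these 4, with exact 95% Poisson intervals and axes from 0. Ddit3 reads 8.05 in the CCl4 library and 14.6 in the rest of the pool, Asns 6.93 and 16.5, and Fgf21 22.4 and 13.1, whereas Atf4 reads 91.1 and 93.8.

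Beside the 10 members, 73 other genes of the pathway were described by list. Of these, 9 were called in HFD over CD (12.3%), 3 of 72 tested in JT003-HFD over HFD (4.17%), 10 in CCl4 over Oil (13.7%) and 5 in JT003-Fibrosis over CCl4 (6.85%). The share of all genes called in these comparisons was 5.44%, 1.67%, 7.26% and 4.46%. Median log2 ratios of the 73 genes were -0.01, -0.10, 0.08 and -0.12. The lists, like the members, were chosen with earlier results of these data known.

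The lists upstream of ATF4 were short. None of the 3 other eIF2 kinases and none of the 8 genes of eIF2 and its exchange factor eIF2B was called in the 4 comparisons. Of all genes, 5.44%, 1.67%, 7.26% and 4.46% were called there, and at such shares lists this short can hold no call. Eif2ak2 (PKR) had 310 reads in CD and 563 in HFD, a log2 ratio of 0.77, and Eif2ak4 (GCN2) had 135 in HFD and 199 in JT003-HFD, a ratio of 0.53. Eif2ak1 (HRI) had 1219 reads in CCl4 and 804 in JT003-Fibrosis, a ratio of -0.61. The eIF2 subunit genes Eif2s1, Eif2s2 and Eif2s3x lay between -0.29 and 0.37 in the 4 comparisons. The 5 eIF2B genes lay between -0.49 and 0.13. Ppp1r15b, the constitutive partner of Ppp1r15a, lay between -0.34 and 0.52. Of the 6 genes of eIF2 dephosphorylation and PERK regulation, 1 was called once, in JT003-Fibrosis over CCl4, beside 4.46% of all genes. This was Impact, which restrains GCN2, at 1.10 [0.83, 1.39], with 156 reads in CCl4 and 339 in JT003-Fibrosis. Over the remainder of the CCl4 pool its ratio was 0.36, without a call.

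Among the 7 factors that pair with or act beside ATF4, Atf3 rose in both models. Atf3, a stress-induced repressor, had 38 reads in CD, 122 in HFD, 61 in JT003-HFD, 15 in Oil, 248 in CCl4 and 124 in JT003-Fibrosis. Its log2 ratio was 1.54 [1.06, 2.16] in HFD over CD and 3.61 [3.01, 4.62] in CCl4 over Oil, and it was -0.999 with JT003 in both models, just short of a call. Atf5, a relative of ATF4 that is abundant in liver, fell from 27297 reads in CD to 8224 in HFD, by 1.82 on the log2 scale, and JT003-HFD had 4539. Nfe2l2, the antioxidant factor NRF2, was 1.19 [1.08, 1.31] in CCl4 over Oil and, over the same control, 0.98 in the remainder of the pool.

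In CCl4 over Oil, 4 of 11 serine, glycine, proline and one-carbon enzymes were called higher and 1 lower, with a list median of 1.01. Of all genes, 4.8% were called higher and 2.46% lower. Phgdh, the first enzyme of serine synthesis, had 2 reads in Oil and 40 in CCl4, and Psat1, the next enzyme, had 17 and 110. Aldh18a1, which starts proline synthesis, had 12 reads in Oil and 99 in CCl4, a log2 ratio of 2.59 [1.89, 3.76]. JT003-Fibrosis over CCl4 was -1.86 [-2.58, -1.33] for Psat1 and -1.58 [-2.26, -1.05] for Aldh18a1, both called. In that comparison 3 of the 11 were called lower, beside 2.55% of all genes. With the remainder of the pool, which held more reads than the library, the median over Oil was 1.43, with 8 of the 11 above 0. With JT003 over the remainder it was -1.17, with 9 of the 11 below 0. Psat1 and Aldh18a1 were also called over Oil and with JT003 when the remainder of the pool stood in for the library. Slc1a4, a carrier of serine and other neutral amino acids, had 41 reads in Oil, 352 in CCl4 and 108 in JT003-Fibrosis, with log2 ratios of 2.76 and -1.70, both called. It was the 1 amino acid transporter of 9 called in CCl4 over Oil, where 7.26% of all genes were called. Asns fell in the comparison in which these genes rose.

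In HFD over CD, 1 of the 11 enzymes was called, beside 5.44% of all genes. This was Got1, which makes aspartate in the cytosol and fell by 2.36 from 7491 reads to 1557. It also fell in CCl4 over Oil, by 1.57. None of the 9 transporters was called in HFD over CD. In JT003-HFD over HFD only Slc1a4 among them was, at -1.11 [-1.59, -0.69], beside 1.67% of all genes. The list of aminoacyl-tRNA synthetases, which charge tRNAs with amino acids, held 12 synthetases and the tRNA exporter Xpot. None of the 13 was called in the 4 comparisons, where 5.44%, 1.67%, 7.26% and 4.46% of all genes were called. The medians of the 12 synthetases were 0.03, -0.08, 0.18 and -0.25, and 6, 0, 7 and 7 of them had an adjusted p below 0.001 in the exact test, beside 23.6%, 14.3%, 26.3% and 24.1% of all genes.

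Of 16 other stress outputs, 5 were called higher and 1 lower in HFD over CD, beside 2.96% and 2.49% of all genes. Vldlr, a lipoprotein receptor, had 17 reads in CD, 83 in HFD and 86 in JT003-HFD, with HFD over CD at 2.08 [1.43, 3.04]. Gdf15, a stress hormone, had 115 reads in CD, 324 in HFD, 185 in JT003-HFD, 115 in Oil, 661 in CCl4 and 507 in JT003-Fibrosis, and was called in both models over their controls, at 1.39 and 2.22. Gadd45a, a growth arrest gene, was 1.60 [0.98, 2.43] in HFD over CD. Cth, an enzyme that makes cysteine, fell in both, by 1.43 and by 1.18. In JT003-HFD over HFD, 2 of the list were called lower, beside 0.901% of all genes. They were Ddit4 at -1.39 and Cbs at -1.10, which fell outside the naming rule and were named after their values were seen.

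Of 12 genes of the other arms of the unfolded protein response, 7 were called higher in HFD over CD, with a median of 1.24. In JT003-HFD over HFD 5 were called lower, with a median of -0.81. Of all genes, 2.96% were called higher in HFD over CD and 0.901% lower in JT003-HFD over HFD. Hspa5, the main chaperone of the endoplasmic reticulum, had 8141 reads in CD, 27926 in HFD and 10330 in JT003-HFD. Manf was 2.37 and then -2.00, Sdf2l1 2.56 and -1.87, and Creld2 2.19 and -1.84 in these comparisons. In CCl4 over Oil 1 of the 12 was called, beside 7.26% of all genes, and in JT003-Fibrosis over CCl4 none was. The medians were -0.19 and -0.43. An adjusted p below 0.001 in the exact test was reached by 7 and 8 of the 12, beside 26.3% and 24.1% of all genes. The remainder of the pool turned the direction over Oil, with a median of 0.51 and 11 of the 12 above 0. Ern1 (the sensor IRE1), named after its values were seen, was called over Oil with the library and with the remainder. Over Oil, Hspa5 was 0.27 with the remainder, against -0.54 with the library, and Manf 0.58, against -0.24. JT003-Fibrosis over the remainder had a median of -0.88, with all 12 below 0. Hspa5 was -1.29, Manf -1.21, Sdf2l1 -1.31 and Hyou1, a chaperone named after its value was seen, -1.32.

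Since Fgf21 is also a PPARα target, 10 others were set beside it. Of these, 7 were called lower in HFD over CD, beside 2.49% of all genes, with a median of -2.22. In JT003-HFD over HFD 4 were called higher, beside 0.767% of all genes, with a median of 0.62. There 9 lay above 0 and 1 below, Angptl4 at -0.31, named after its value was seen. Fgf21 was -3.30 and 1.44 in these comparisons. Cyp4a14, a fatty acid hydroxylase, had 206802 reads in CD, 7401 in HFD and 30625 in JT003-HFD. In CCl4 over Oil the list median was -0.60, with 2 called lower and 1 higher, beside 2.46% and 4.8% of all genes. The 1 called higher was Pdk4 at 2.05, and Fgf21 was 0.80. With the remainder of the pool the list median over Oil was -1.12, with 9 of the 10 below 0, and Fgf21 was 0.02. In JT003-Fibrosis over the remainder the median was 0.19, with 8 of the 10 above 0. Over the library it was -0.22, with 3 of the 10 above 0. The part of PPARα in the levels of Fgf21 was not tested.

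**Figure D4:**
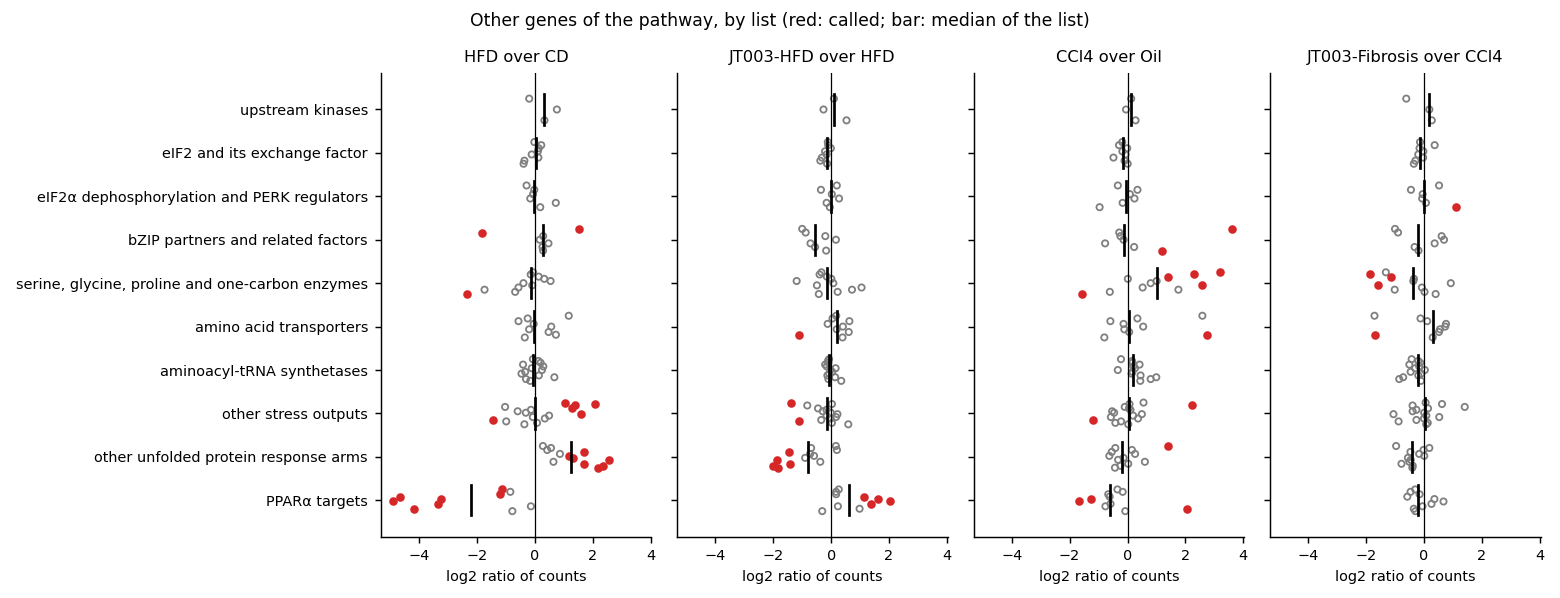
Log2 ratio of counts of the other pathway genes in 4 comparisons, 1 point per gene by list, filled red where called, with a black bar at the median of each list. The list of aminoacyl-tRNA synthetases shows no red point, where 1.67% to 7.26% of all genes were called. The other unfolded protein response arms have a median of 1.24 in HFD over CD, and the PPARα targets have one of -2.22.

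Markers of other cells and of dividing cells moved in the same libraries as some of these genes. The 8 mitosis genes summed to 207.1 scaled CPM in CCl4 and to between 3.66 and 17.6 in the other 5 libraries, none of the 8 being at 0 in CCl4. All 8 were called higher in CCl4 over Oil and lower in JT003-Fibrosis over CCl4, beside 4.8% and 2.55% of all genes. Nupr1, Psat1, Aldh18a1 and Slc1a4 also rose and then fell, whereas Asns fell in both comparisons and Chac1 fell and then rose. The 8 macrophage markers summed to 77.1 in Oil and to between 191.6 and 427.8 elsewhere, with none at 0. In CCl4 over Oil 7 of the 8 were called, beside 7.26% of all genes. Stellate cell and myofibroblast markers summed to 417.1 in HFD and 453.0 in CCl4, against 224.9 to 330.8 in the other libraries, and bile duct markers to 156.0 in CCl4 and 143.0 in JT003-Fibrosis, against 26.5 to 50.1. The 6 endothelial markers summed to 117.6 in Oil, 66.7 in CCl4 and 99.8 in JT003-Fibrosis, with none at 0. The 3 adipocyte markers found, Adipoq, Plin1 and Cidec, summed to 287.6 in CD, 39.96 in HFD, 11.4 in JT003-HFD, 117.9 in Oil, 23.8 in CCl4 and 9.87 in JT003-Fibrosis. As for Asns, the sums in CD and Oil were above the other 4. Adipoq, which defines fat cells, was at 0 in all libraries but Oil and CCl4, and so in CD, where the sum was highest. In JT003-HFD and JT003-Fibrosis Plin1 was at 0 as well, so the sum there was Cidec alone. The sum can therefore not be read as a level of fat cells. The part of these cells in the member levels was not tested.

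Over the 6 libraries, the members whose scaled levels were most alike were Trib3 and Asns, with a Pearson r of 0.94, followed by Atf4 and Ppp1r15a at 0.86. Atf4 and Ddit3 had an r of 0.02. These are descriptions over 6 libraries that share their scaling. Among 10279 genes with at least 100 reads in their highest library, the patterns most like that of Asns were shown by Zfp839 (r = 0.99), Apoa1, Cct2, Serpina1a and Grpel1. For Fgf21 they were Mfsd7c (r = 1.00), Haus5, Pxn, Epha2 and Agbl5. These genes were picked for the highest r over 6 libraries, so an r near 1 can come from the selection alone. The size of a change does not enter r. Zfp839 had 154 reads in HFD and 222 in Oil, where Asns had 16 and 590.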

How the data were processed

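Liver RNA was sequenced on 6 libraries, 1 per condition. The authors deposited expected counts, their estimates of reads per gene without normalization, and FPKM, which the authors scaled by transcript length and library reads. HISAT, Bowtie2, RSEM and mm9 are named in the submitters' processing notes without role. The authors' comparison tables hold fold changes and p-values, which were not used, nor were 7 expression columns. A pooled CCl4 column of expected counts was used as an alternative.

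Expected counts were rounded. Library sizes were scaled by TMM (edgeR 4.0.16, R 4.3.3) within each model. The exact conditional binomial test (two-sided, scipy 1.17.1) was run on all genes having 1 read or more, p-values were adjusted after Benjamini and Hochberg, and log2 ratios used a prior count of 2. The tests were checked on simulated data. DESeq2 1.42.0 gave alternative size factors. Python 3.11.15, pandas 2.3.3 and matplotlib 3.10.9 were used.

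Members and lists were chosen with earlier results of these data known. Named were all members, the eIF2 kinases, eIF2 and eIF2B subunits, Ppp1r15b, and at most the 4 called genes with the largest ratios per list. Likeness to Asns and Fgf21 was given for 5 genes each, and likeness to Ddit3 is not reported here. The comparisons of Oil with CD, and of the CCl4 library with the remainder of the pool, were added after seeing the data.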

Additional observations from a re-analysis of the deposited data

Results flagged for a closer look

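For 3 members the log2 ratios of the diet and the CCl4 model lay on opposite sides of 0, with counting intervals that excluded 0 in both, and the difference between the models was not tested. Chac1 was 1.56 in HFD over CD and -1.26 in CCl4 over Oil. Fgf21 was -3.30 in HFD over CD and 0.80 in CCl4 over Oil, and it was 1.44 in JT003-HFD over HFD and -1.34 in JT003-Fibrosis over CCl4. Sesn2 was 0.47 in JT003-HFD over HFD and -0.37 in JT003-Fibrosis over CCl4, and it was called in neither. When the rest of the authors' CCl4 pool replaced the library, Chac1 was -0.02 [-0.60, 0.60] and Fgf21 0.02 [-0.21, 0.25] over Oil, and both intervals held 0. JT003-Fibrosis over that rest was -0.56 [-0.81, -0.32] for Fgf21 and -0.34 [-0.62, -0.07] for Sesn2, neither called. Both remained on the opposite side of 0 from the diet model.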

How the results depend on the processing

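The 16 member calls of the 6 comparisons gave 140 values under other settings, of which 120 were called and 20 were not, 16 of these with the assumed variation and 4 with the pooled CCl4 counts or their remainder, and 0 changed sign. The ratios not called gave 380 values, of which 17 were called and 16 changed sign, among them Ddit3 in JT003-Fibrosis over CCl4, at -0.51 with the pool. With no threshold on the ratio, the genes called numbered 4003 in HFD over CD, 2445 in JT003-HFD over HFD, 4531 in CCl4 over Oil, 4199 in JT003-Fibrosis over CCl4, 4566 in JT003-HFD over CD and 3576 in JT003-Fibrosis over Oil, and the members called were 4 in CCl4 over Oil and 2 in JT003-Fibrosis over Oil. With edgeR's exact test at an assumed biological coefficient of variation of 0.4, the genes called numbered 11, 0, 59, 0, 5 and 24 in the same order and the members called 0 in all 6, while 3, 1, 2, 2, 3 and 1 members had an unadjusted p below 0.05, against 2.3%, 0.837%, 3.77%, 2.01%, 2.67% and 2.48% of all genes. Members called in CCl4 over Oil were 4 with total reads, with FPKM plus 0.1 and with the remainder of the pool. Total reads moved the median of genes with 10 counts by 0.12 in HFD over CD, 0.23 in CCl4 over Oil, 0.14 in JT003-HFD over CD and 0.30 in JT003-Fibrosis over Oil. No paired analysis was possible because each condition has 1 library. No library could be left out of a condition for the same reason. Genes of few reads, such as Chac1 and Nupr1, have wide intervals at this depth.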
